A study of Mus musculus with 2 samples.

Results

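Transcript levels of 10 genes of the Notch pathway were described in cultured mouse hepatoblasts: the receptors Notch1, Notch2, Notch3 and Notch4, the ligands Jag1, Jag2 and Dll1, the sugar transferase Lfng, and the target genes Hes1 and Hey1. The members were chosen by gene name among the gene probes of the array, which gave 15 probes for 10 of the 20054 named genes. Expandable hepatoblasts (eHBs), fetal liver progenitor cells kept dividing in culture, came from C57BL/6 mice. They were grown on Matrigel or laminin with EGF at 10 ng/ml, CHIR99021 (an inhibitor of the kinase GSK3, which activates Wnt signalling) at 3 μM, E-616452 (an inhibitor of a TGF-beta receptor) at 2 μM, and the lipids LPA at 5 μM and S1P at 0.5 μM, so cells of both passages carried the same agents. One group was eHBs at passage 20 and the other eHBs at passage 5, with 1 single-colour Agilent array each. The 2 RNA samples came from separate experiments, so passage and experiment cannot be told apart, and with 1 array per passage no test can be made.

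Notch receptors sit in the cell membrane and are activated by Jagged or Delta ligands on a neighbouring cell. Ligand binding leads to cleavage of the receptor, and its intracellular part enters the nucleus, joins the DNA-binding protein Rbpj and the coactivator Mastermind, and turns on target genes such as those of the Hes and Hey families. In the fetal liver, Jag1 and Notch2 are known for the formation of bile ducts from hepatoblasts, and loss of one copy of either gene causes Alagille syndrome in humans.

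The following 4 probes are shown as examples of what the array reads. They were chosen by their position in the transcript and an open reading frame across each; those of Notch2, Jag1 and Lfng are the dimmest of their gene and did not give the gene's value, while that of Hes1 did. Each is given 5′ to 3′ as printed on the array, with the position at which it starts in the reference transcript.

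Notch2, base 7420: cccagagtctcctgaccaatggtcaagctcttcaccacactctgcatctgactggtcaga
Jag1, base 3678: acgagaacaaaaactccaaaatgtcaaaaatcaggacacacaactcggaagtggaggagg
Lfng, base 1070: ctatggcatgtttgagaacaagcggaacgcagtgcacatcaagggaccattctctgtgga
Hes1, base 408: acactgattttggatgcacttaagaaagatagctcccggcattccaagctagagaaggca

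In build mm9, the build of the array annotation, the Notch2 probe lies at chr3:97951205-97951264 on the plus strand and the Jag1 probe at chr2:136908942-136909001 on the minus strand. The Lfng probe lies at chr5:141090156-141090215 on the plus strand. The Hes1 probe is 60 bases long but spans 296 genomic bases, at chr16:30065983-30066278 on the plus strand. The exon and UTR annotation of the probes in mm9 was not analysed here.

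On the arrays, 46.1% of the 41158 gene probes gave a signal well above background at passage 20, against 45.5% at passage 5, and 0 spots were saturated. The 75th percentile of the signal was 853 at passage 20 and 1085 at passage 5, and a level is given below as log2 of the signal minus that percentile on its own array; raw signals of the arrays are therefore not on a common scale. Differences are passage 20 minus passage 5 on the log2 scale, and the error beside each is the combined standard deviation that the scanner software gives for 1 spot on each array, which leaves out variation between cultures. A gene was called different at 2-fold. Of 12 hepatoblast markers, among them Afp, Hnf4a, Foxa2, Prox1, Tbx3, Cdh1, Krt8 and Krt18, 10 were above background at passage 20 and 11 at passage 5. Foxa1 was above background on neither array, Gpc3 was above background at passage 5 only and at least 9.49-fold lower at passage 20, and Epcam was 2.24-fold lower. Cdh1 was 2.89-fold and Prox1 2.02-fold higher. The Prox1 difference was 1.02 ± 0.35, and its passage 5 level of -3.11 lay near the lowest of any probe above background there, -3.32. Of the 11 markers above background on at least 1 array, 2 were called higher and 2 lower. Among all named genes measured, 3.26% were called higher and 5.74% lower. Of 8 hepatocyte markers, 0 were above background at passage 20 and 1 at passage 5, Apoa1, with a level of -2.92 there. Among the others, Alb and Ttr, which hepatoblasts of the fetal liver also express, were above background on neither array.

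Of the 10 members, 8 were measured. Lfng was 2.16-fold higher at passage 20 and Hey1 was 2.52-fold lower. The receptors Notch1 and Notch2 and the ligand Jag1 were 1.85-fold, 1.67-fold and 1.54-fold higher, while Notch3, Jag2 and Hes1 were 1.17-fold, 1.23-fold and 1.48-fold lower. Notch4 and Dll1 were not above background at either passage. At 2-fold, 1 of the 8 measured members was called higher, or 12.5%, against 3.26% of the 11799 named genes measured. In the other direction 1 of 8 was called lower, or 12.5%, against 5.74% of the named genes measured. At 1.5-fold, 4 of 8 were called higher, or 50% (10.4% of the named genes measured), and 1 of 8 was called lower, or 12.5% (11.8%). These 1.5-fold counts depend on the scaling. With median scaling Notch1 (0.577), Notch2 (0.43) and Jag1 (0.31) fell short of 1.5-fold, while Hes1 (-0.87) and Jag2 (-0.60) passed it downward. With spike-in scaling Notch2 (0.53) and Jag1 (0.41) fell short, and Hes1 (-0.78) passed it downward. The shares of all genes at 1.5-fold under these scalings are not given here. The members' median difference was 0.19 and that of all measured genes 0.07.

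**Figure D1:**
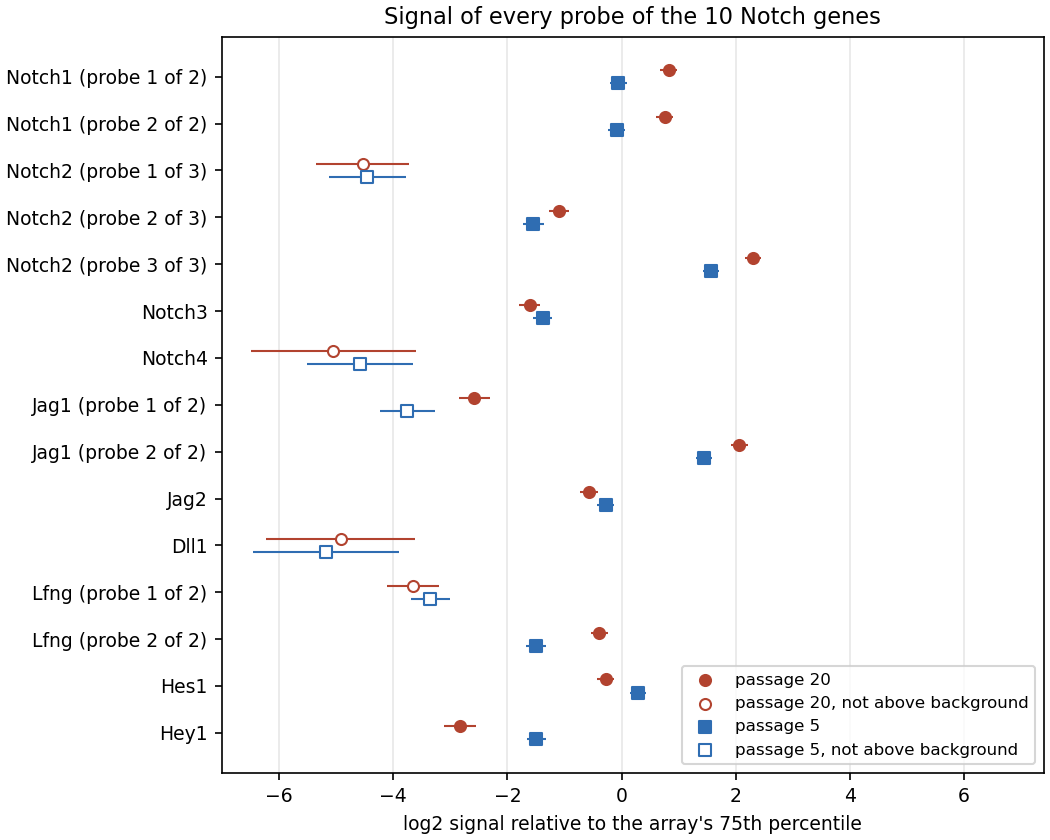
Level of each of the 15 probes of the 10 genes, as log2 signal relative to the 75th percentile of its array, at passage 20 (red circles) and passage 5 (blue squares), with bars for the scanner software's standard deviation of 1 spot; open symbols are not well above background. Levels are compared only between passages within a probe, and the probes of Notch4 and Dll1, the first probe of Notch2 and the first probe of Lfng are open at both passages.

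Notch1, a receptor active in many progenitor cells, was higher at passage 20 in every repeat spot. Its first probe was spotted 10 times, at chr2:26314772-26314830 on the minus strand in mm9. The spot signals had a lowest value of 1428, a median of 1498 and a highest value of 1754 at passage 20, against 902, 1037 and 1224 at passage 5. The spots of the arrays did not overlap, before or after scaling. The level was 0.83 at passage 20 and -0.06 at passage 5, a difference of 0.89 ± 0.21. All 10 spots were higher at passage 20, by 0.67 to 1.22, with a standard deviation of 0.16 over the spots. The median standard deviation of such spot differences over 108 repeated probes was 0.04, and their 95th percentile was 0.17. These 10 spots read 1 RNA sample per passage and are not replicates of a passage. The second Notch1 probe had a level of 0.76 at passage 20 and -0.09 at passage 5, a difference of 0.84 ± 0.21. Of the measured genes, 508, or 4.31%, had a difference at least as high as that of Notch1. Under the other settings tried it lay between 0.58 and 0.89, below 2-fold in each.

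**Figure D2:**
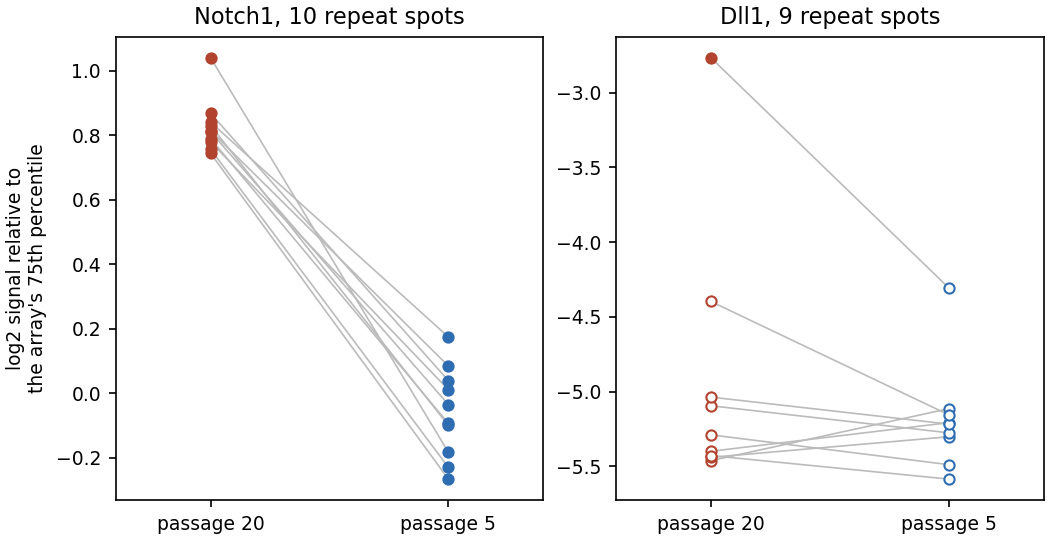
Level of each repeat spot of the Notch1 probe (10 spots) and the Dll1 probe (9 spots used), as log2 signal relative to the 75th percentile of its array, at passage 20 (red) and passage 5 (blue); lines join the same spot position on the arrays, open symbols are not above background, and the panels have different vertical scales. All Notch1 spots at passage 20 lie above all of those at passage 5, whereas 1 Dll1 spot at passage 20, with a signal of 125, stands above the rest.

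Notch2, the receptor tied to bile duct formation, had 3 probes. The one starting at base 10129 of the transcript had a signal of 4223 at passage 20 and 3216 at passage 5, and its level was 2.31 at passage 20 and 1.57 at passage 5. That was a difference of 0.74 ± 0.20, with 752 measured genes, or 6.37%, at least as high. The probe starting at base 9058 had a level of -1.10 at passage 20 and -1.55 at passage 5, a difference of 0.45 ± 0.25. The probe starting at base 7420, printed above, was not above background at either passage, with signals of 36.8 at passage 20 and 49.4 at passage 5. Both measured probes were higher at passage 20, neither by 2-fold, and the gene's difference lay between 0.37 and 0.74 under the other settings tried.

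Notch3, a receptor best known from smooth muscle and pericytes, had a signal of 280 at passage 20 and 417 at passage 5. Its level was -1.61 at passage 20 and -1.38 at passage 5, and the difference of -0.23 ± 0.25 was smaller than its spot error, with a range of -0.54 to -0.02 over the other settings. Notch4, best known from endothelium, had signals of 25.7 at passage 20 and 45.1 at passage 5, not above background at either passage. None of the 12 endothelial markers, Pecam1 and Cdh5 among them, was well above background on either array. Their summed level was 0.444 at passage 20 and 0.391 at passage 5, in units of the array's 75th percentile. These sums add signals not above background, so neither they nor their difference measures endothelial RNA. Of 12 stellate cell and fibroblast markers, 3 were above background at passage 20 and 4 at passage 5. Their summed level was 29.5 at passage 20 and 32.4 at passage 5. Most of both sums came from Acta2 alone, with a level of 4.65 at passage 20 and 4.75 at passage 5. Col1a1 and Pdgfrb were above background on neither array. Tagln was 2.91-fold lower and Dcn at least 15.9-fold lower at passage 20, Reln was 1.66-fold higher, and Acta2 differed by -0.10 ± 0.20. The part of such cells in the Notch3 signal was not tested, and fewer cells of a type cannot be told apart from less RNA per cell on these arrays.

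Jag1, the ligand tied to bile duct formation, was read by 2 probes. The probe starting at base 5187 had a signal of 3566 at passage 20 and 2952 at passage 5. Its level was 2.06 at passage 20 and 1.44 at passage 5, a difference of 0.62 ± 0.20, and 1102 measured genes, or 9.34%, were at least as high. The probe starting at base 3678, printed above, had a signal of 143 at passage 20 and 80.4 at passage 5 and was well above background at passage 20 only. It gave a difference of at least 0.74, and of 1.18 ± 0.55 as measured. Both Jag1 probes were thus higher at passage 20. With the array's median in place of its 75th percentile the Jag1 difference was 0.31, and with the mean of both probes as measured it was 0.90.

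Jag2, the other Jagged ligand, had a signal of 574 at passage 20 and 895 at passage 5, with a level of -0.57 at passage 20 and -0.28 at passage 5. The difference was -0.29 ± 0.21, in the opposite direction to that of Jag1, and it was -0.60 with median scaling. Dll1, a Delta ligand, was spotted 10 times, and 1 spot was left out for an outlier flag. Of the other 9 spots, 1 was well above background at passage 20, with a signal of 125, and 0 of 9 were at passage 5. The median Dll1 spot signal was 21.8 at passage 20 and 29.2 at passage 5, so no Dll1 difference was detectable at this signal.

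Lfng, lunatic fringe, adds sugar to Notch receptors in the Golgi and thereby changes which ligands they respond to. The probe starting at base 2008 had a signal of 651 at passage 20 and 384 at passage 5. Its level was -0.39 at passage 20 and -1.499 at passage 5, a difference of 1.11 ± 0.23. Of the measured genes, 285, or 2.42%, were at least as high. The probe starting at base 1070, printed above, was not above background at either passage, with signals of 68.0 at passage 20 and 106 at passage 5 and a measured difference of -0.29 ± 0.57, so the call rests on 1 probe. The Lfng call was also lost with loess normalization (0.99), with spike-in scaling (0.90) and with median scaling (0.80), in each case still higher at passage 20.

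Hes1, a transcriptional repressor that is a direct Notch target in many tissues, had a signal of 706 at passage 20 and 1327 at passage 5. Its level was -0.27 at passage 20 and 0.29 at passage 5, a difference of -0.56 ± 0.21. It stayed within 2-fold and lower at passage 20 under every other setting tried, between -0.87 and -0.41. Hey1, a related repressor, had a signal of 120 at passage 20 and 385 at passage 5. Its level was -2.83 at passage 20 and -1.496 at passage 5, a difference of -1.33 ± 0.33, and 396 measured genes, or 3.36%, were at least as low. The passage 20 level lay near the lowest level of any probe well above background on that array, -3.17. With normexp background correction the Hey1 difference was -0.61 and the call was lost. That method subtracts the local background, models what remains and adds an offset, here 50. An added constant makes a log2 difference between dim signals smaller, and its part in the Hey1 value was not tested.

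**Figure D3:**
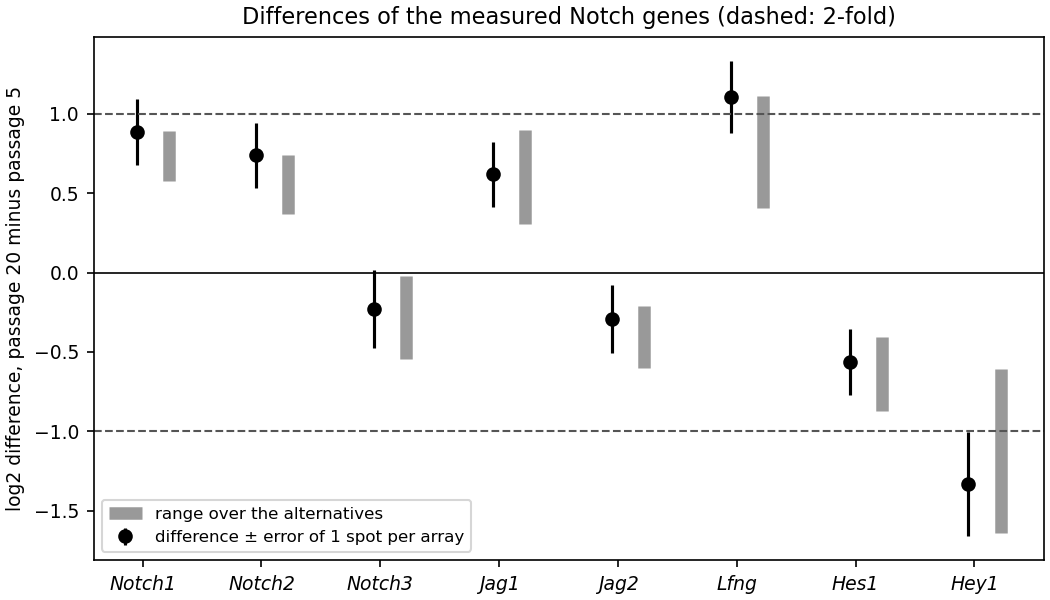
Difference of each of the 8 measured members between passage 20 and passage 5 on the log2 scale, from its brightest probe (black points, with bars for the combined error of 1 spot on each array), beside its range over 12 other settings (grey bars); dashed lines mark 2-fold. Lfng at 1.11 and Hey1 at -1.33 lie beyond the lines, and the grey bars of both reach within 2-fold.

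Among the measured members whose difference exceeded its spot error, the receptors Notch1 and Notch2, the ligand Jag1 and the modifier Lfng were higher at passage 20, whereas the ligand Jag2 and both targets, Hes1 and Hey1, were lower. Notch3 was the one measured member whose difference, as reported, did not exceed it. This sorting depends on the processing. Set against the same error of 0.245, Notch3 lay beyond it with quantile normalization (-0.33), loess (-0.38), spike-in scaling (-0.44) and median scaling (-0.54). With normexp background correction Jag2 (-0.207) lay within its error of 0.213. In all, 4 measured members were higher and 4 lower at any size, where 57.4% of all measured genes were higher. Each of these 8 directions was kept under 12 of 12 other settings, but some settings could not change them. Requiring both arrays above background, or dropping the filter on dim probes, left all 8 values unchanged. For Notch3, Jag2, Hes1 and Hey1, with 1 probe each, averaging over probes changed nothing. The authors' values nearly repeated those of quantile normalization (Notch1 0.872 with either).

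**Figure D4:**
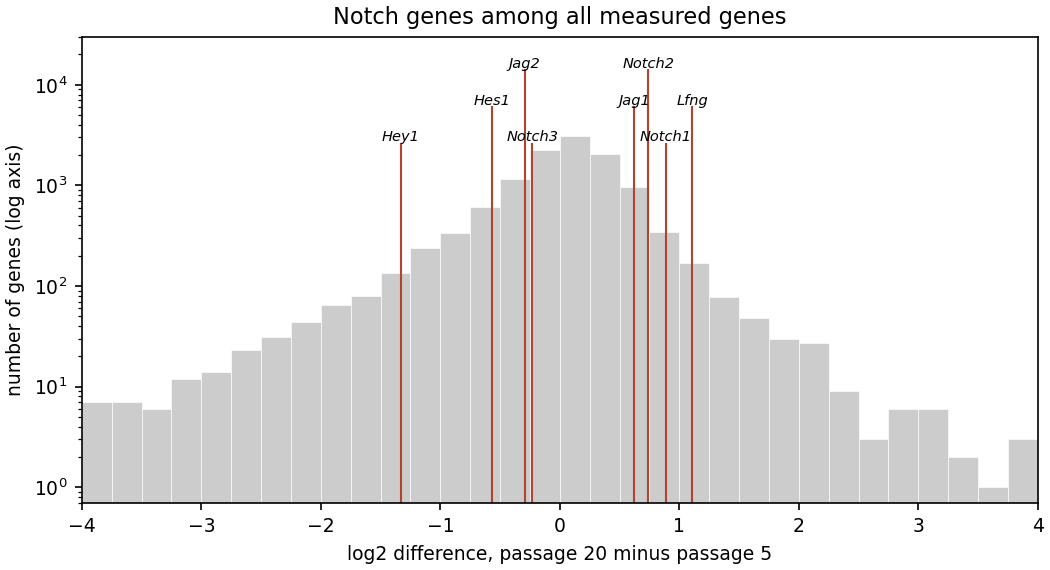
Histogram of the difference between passage 20 and passage 5 over the measured named genes, on the log2 scale, with lines at the 8 measured members; genes beyond 4 on this scale lie outside the plot. Lfng and Hey1 stand in the tails and the other 6 members within 2-fold.

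The promoters of the members were read for the letters bound by Rbpj, the DNA-binding partner of cleaved Notch, whose core is TGGGAA and whose longer form is GTGGGAA. RefSeq promoters in build GRCm38.p6, running from 250 bases before to 50 bases after the transcript start, were found for 8 of the 10 members, 9 promoters in all since Dll1 had 2; the other members are Hes1 and Hey1. On both strands, 1 of the 9 held TGGGAA, that of Lfng, where 25.6% of 32851 promoters held it. GTGGGAA, which contains the shorter core, was found once, also in the Lfng promoter, and in 6.38% of all promoters. The bases upstream of the Lfng start, at chr5:140607091-140607340 on the plus strand in GRCm38.p6, are shown because, of the 9 promoters read, this was the one with a match, and Lfng was the member called higher. The capitals mark the 2 matches, the first of which starts 135 bases before the transcript start and is on the minus strand, and the second 108 bases before it on the plus strand.

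Lfng upstream: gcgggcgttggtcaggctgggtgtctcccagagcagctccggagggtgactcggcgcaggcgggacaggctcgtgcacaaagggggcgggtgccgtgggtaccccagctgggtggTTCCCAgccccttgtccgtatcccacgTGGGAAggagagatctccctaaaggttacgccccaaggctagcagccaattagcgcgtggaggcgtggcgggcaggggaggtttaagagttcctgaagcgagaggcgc

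A match is a stretch of letters and no measurement of binding. In the window of this length, 21.6% of all promoters held TGGGAA.

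A further 49 genes of the pathway were taken by role. Of these, 34 were measured, 0 were called different at 2-fold in either direction (3.26% of all measured genes were called higher and 5.74% lower), and their median difference was 0.03, against 0.07 for all measured genes. Their differences ran from -0.83 to 0.68. At 1.5-fold 1 was called higher and 1 lower of the 34, where 10.4% of all measured genes were called higher and 11.8% lower. The gene called higher was Maml2, a Mastermind coactivator, above background at passage 20 only, with a measured difference of 0.68 ± 0.44. Another of its probes gave 0.50, below 1.5-fold. The gene called lower was Dtx3, a Deltex ubiquitin ligase, with a level of -1.55 at passage 20 and -0.72 at passage 5, and its other probe gave -1.22. Maml2 was named after its value was seen.

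Of the 5 other ligands, 1 was measured, Dlk2, a Delta-like protein without the receptor-binding domain of the classic ligands. It had a level of 0.77 at passage 20 and 1.28 at passage 5, a difference of -0.51 ± 0.21. Dll4, the Delta ligand best known from vessels, was not above background on either array.

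Of the 8 genes that modify receptors or ligands, 6 were measured, with a median difference of 0.23. Pofut1, which adds the fucose that Lfng extends, differed by 0.32 ± 0.20, and its other probe gave 0.15. Mib1, the ubiquitin ligase that lets ligands be taken up, differed by 0.30 ± 0.20, with another of its probes at 0.10. Poglut1, which adds glucose to the receptor, differed by 0.24 ± 0.21. The other Fringe genes, Mfng and Rfng, were not above background on either array.

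Of the 10 genes of receptor cleavage, 9 were measured, with a median difference of 0.02. Furin, which cuts the receptor on its way to the surface, differed by 0.45 ± 0.20. Adam10, which makes the cut after ligand binding, differed by 0.02 ± 0.22. Within gamma-secretase, the enzyme that frees the intracellular part, Aph1b differed by 0.40 ± 0.21 and Aph1a by 0.21 ± 0.21. The other Aph1a probe gave -0.23, and the lowest of the Aph1b probes gave 0.21.

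Of the 10 genes of the nuclear complex, 8 were measured, with a median difference of 0.31. Rbpj had a level of -0.45 at passage 20 and -0.75 at passage 5, a difference of 0.30 ± 0.22, and Maml1, a Mastermind coactivator, differed by -0.17 ± 0.21. Snw1 (SKIP), a cofactor of Rbpj, differed by -0.48 ± 0.20, and its other probe gave -0.16. The acetyltransferase Ep300 differed by 0.44 ± 0.21, with 1 of its 4 probes above background.

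Of 8 inhibitors and turnover genes, 7 were measured, with a median difference of -0.04. Numb, an inhibitor of Notch handed unequally to daughter cells, differed by 0.17 ± 0.24, with another of its probes at -0.18. The Deltex gene Dtx2 differed by -0.33 ± 0.20, and Dtx4 by 0.23 ± 0.22, with another of its probes at -0.69.

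Of 8 other target genes 3 were measured, all within 2-fold. Hes6 had a level of 4.37 at passage 20 and 4.59 at passage 5, a difference of -0.22 ± 0.20, and its other probe gave -0.74. Hes2 differed by -0.05 ± 0.35. Nrarp, a Notch target that feeds back on the pathway, was above background at passage 5 only, with a signal of 64.3 at passage 20 and 133 at passage 5 and a difference of -0.14 or lower. By its rule such a bound cannot lie above 0, so its sign was fixed in advance. Hes5 and Heyl, direct Notch targets in several tissues, were not above background on either array.

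**Figure D5:**
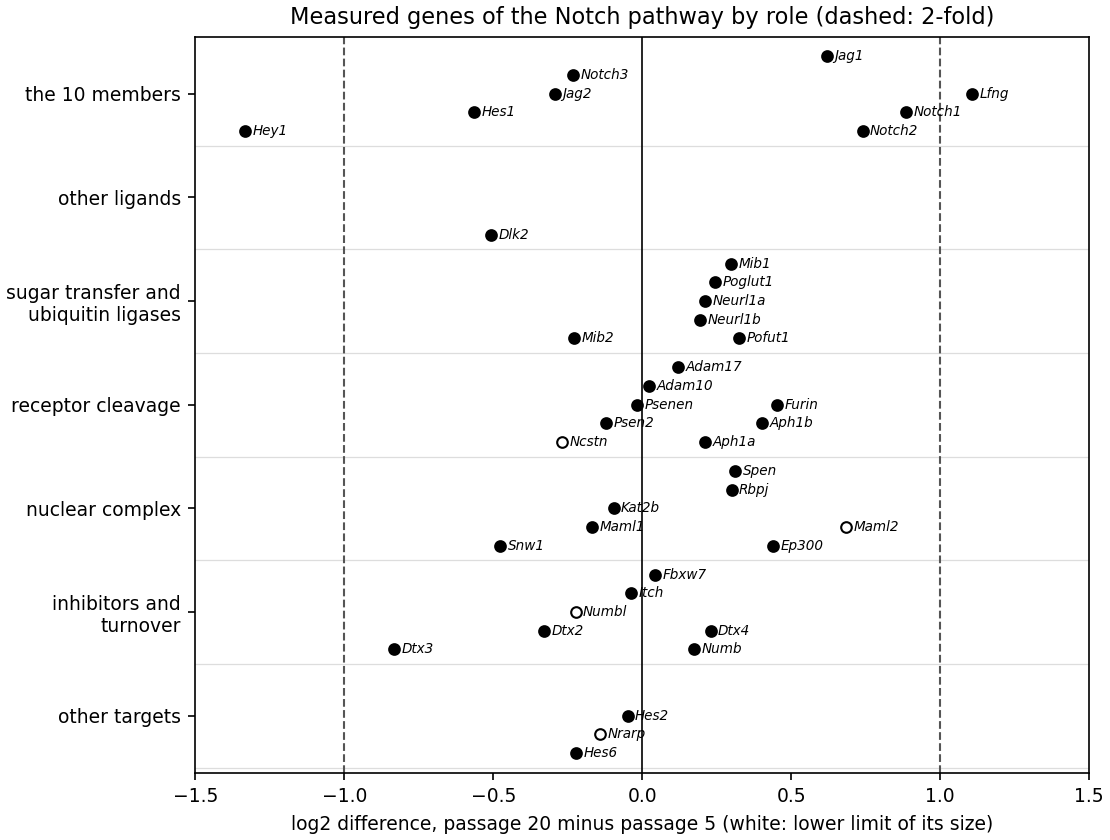
Difference between passage 20 and passage 5 of measured genes of the Notch pathway by role, 2 of them left out, on the log2 scale, with dashed lines at 2-fold. Filled points were above background on both arrays and white points on 1. A white point is a lower limit of the size or, as for Maml2, the measured difference. The vertical offset within a role separates names only. None of the further genes drawn lies beyond the dashed lines.

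Genes of the bile duct lineage, in whose formation Notch takes part, were all measured, 8 of 8. Spp1 (osteopontin) was 6.83-fold higher, with a level of 7.30 at passage 20 and 4.53 at passage 5. Sox9, a ductal transcription factor reported as a Notch target, had a level of 2.59 at passage 20 and 3.099 at passage 5, a difference of -0.51 ± 0.20. Krt19, a duct keratin, differed by -0.52 ± 0.20. One of the 8 was called higher at 2-fold and 0 lower, where 3.26% of all measured genes were called higher and 5.74% lower. The median difference of the 8 was -0.22, against 0.07 for all measured genes.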

How the data were processed

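Total RNA of eHBs at passage 20 and passage 5 was labelled with Cy3 and hybridised to 1 array for each passage, as the labels' protocols state. Spot intensities came from Agilent Feature Extraction 10.7.3.1, which subtracted background and removed spatial and multiplicative trends, per the file headers; flags for outliers and signal above background are deposited beside them. A table of log2 values that the authors deposited was used as an alternative, with a median of 6.31 in both columns and r of 0.99986 at passage 20 and 0.99987 at passage 5 with the log2 scanner signal. Its normalization was not given in the sources used here, and its direction was read from its columns.

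Control spots and outlier spots (69 at passage 20 and 73 at passage 5, left out on both arrays) were removed, the spots of a probe were averaged on the log2 scale, and the 75th percentile over gene probes was subtracted. A gene took its brightest probe. Probe names came from the GRCm38.p6 RefSeq table (27659 by accession, 5586 by symbol, 471 by an older symbol), and 7442 stayed unnamed. A probe counted as above background where at least 0.5 of its spots did. Where only 1 array showed a gene above background, a bound was taken: that level against the dim array's own level or, if higher, the lowest level there of any probe above background (-3.17 at passage 20, -3.32 at passage 5). Counts include such bounds. The number of arrays, 1 per passage, limits the precision, and no p-value was computed. The arrays shared a slide and a scan.

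The members, lists and call rule were chosen with earlier results of these data known. All members were named, with pathway genes past 2-fold, up to 3 of each list with the largest differences measured on both arrays, and a fixed set (Rbpj, Maml1, Adam10, Numb, Nrarp, Hes5, Heyl, Mfng, Rfng, Dll4, Sox9, Spp1, Krt19); a few further genes that this rule names are not reported here. Alternatives changed the background correction, scaling, source of values, filter on dim probes, outlier spots, probe choice and threshold. Python 3.11.15, numpy 2.4.6, pandas 2.3.3, statsmodels 0.14.6, matplotlib 3.10.9, R 4.3.3 and limma 3.58.1 were used. The calling steps were also run on simulated data, with differences beyond 2-fold put into brighter probes only. That run does not cover calls near 2-fold or at dim probes.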

Additional observations from a re-analysis of the deposited data

How the results depend on the processing

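The 8 measured members kept their direction under 12 of 12 alternatives, some of which could not change a member's value. The members' calls at 2-fold did not all hold. The count of members called higher, 1 as reported, was 0 with loess, spike-in scaling, median scaling, a 4-fold threshold and the mean over all of a gene's probes with dim ones included (Lfng 0.41), an alternative chosen after seeing the data, and 4 at a 1.5-fold threshold. The count called lower, also 1, was 0 with normexp background correction and at 4-fold. The members' median difference of 0.19 was -0.02 with spike-in scaling and -0.12 with median scaling, where the median of all measured genes, 0.07 as reported, was -0.14 and -0.24. Over all measured genes, 385 were called higher and 677 lower as reported, against 233 and 964 with spike-in scaling, 193 and 1127 with median scaling, 260 and 885 with loess, 252 and 398 with normexp, and 1286 and 1286 without a filter on dim probes. Where both arrays had to be above background, 428 were lower, and with the mean over all probes 582 were higher. Of the other pathway genes, 0 as reported, 1 was called lower with median scaling, spike-in scaling and the mean over measured probes, 2 lower with the mean over all probes, and 1 higher and 2 lower without the filter. The cause of these shifts was not tested. No paired analysis was possible because each passage has 1 array, and leaving out a replicate could not be run for the same reason. Signal over background limits Notch4 and Dll1, the Notch2 probe starting at base 7420 and the Lfng probe starting at base 1070, above background at neither passage, and the Jag1 probe starting at base 3678, above it at passage 20 only; differences measured at these probes gave no reported call.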
